A study of Mus musculus with 6 samples.

Results

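The cytochrome P450 and carboxylesterase genes are large families of mouse enzyme genes. Members were taken as the genes whose symbol starts with Cyp and a number, apart from Cyp51, or with Ces and a number, with 1 probe set per gene. The array covered 85 of them, 72 P450 genes and 13 carboxylesterase genes, among 18194 genes in all. RNA came from male mice that were either knockout (KO) for Kdm4b throughout the body or wild type (WT), and from 3 fat depots of each, namely the epididymal and subcutaneous white depots and brown fat. Kdm4b encodes a demethylase of histone H3. All mice were 2 months old, ate chow, lived at room temperature and had been fasted for 6 hours. Each depot and genotype had 1 Affymetrix array, 6 in all, and the labels give neither the strain, nor the number of mice behind a sample, nor whether depots share mice. Differences between KO and WT within a depot therefore have no replicate check and are described by size, with no p-value.

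Signals are MAS5 intensities on a linear scale, and a signal floor was set at 63.2, the 40th percentile of the probe sets. Values at or under this floor have no order, so a fold against such an array is given as at least so many times. Between 12639 and 13594 genes lay above the floor on an array. Probe sets of the same gene disagreed in their log2 KO over WT by an SD of 0.31 (epididymal fat), 0.32 (subcutaneous fat) and 0.32 (brown fat), an error that leaves out the spread between mice. Kdm4b itself had a signal of 188 in KO against 227 in WT epididymal fat, 157 against 272 in subcutaneous fat and 95.2 against 135 in brown fat. It was lower in KO in each depot by under 2-fold, and since the deleted exons are not given, this probe set does not check the genotype. The adipocyte markers were above the floor in all samples, with 6 of 6 genes on the array detected. Only Lep among them was past 2-fold between KO and WT in any depot. It had 14421 in KO against 6063 in WT epididymal fat and 9178 against 3857.5 in subcutaneous fat. In bulk tissue, fewer cells of a type and less RNA per cell cannot be told apart.

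Cytochrome P450s are haem enzymes that insert an oxygen atom from molecular oxygen into lipids, steroids, vitamins and foreign chemicals, drawing electrons from partner proteins. Carboxylesterases cut ester bonds, and those of family 1 include triglyceride and cholesteryl ester hydrolases of liver and fat. In adipose tissue these families are known for handling stored lipid, retinoids, oxysterols, oxygenated fatty acids and lipid-soluble foreign compounds.

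The promoters of Cyp2f2, Cyp2e1 and Cyp2b10 are shown because each of these genes was at least 2-fold lower in KO in a depot and also differed between brown and white fat. All 3 genes lie on the plus strand of chromosome 7, and each sequence is the 250 bases before the start of the gene in RefSeq, build GRCm38.p6. Capitals mark matches, on either strand, to a TATA box (TATAAA), the core that the aryl hydrocarbon receptor binds (GCGTG, read as CACGC on the other strand) and a C/EBP motif (TTGCNNAA, N being any base).
Cyp2f2, chr7:27119705-27119954: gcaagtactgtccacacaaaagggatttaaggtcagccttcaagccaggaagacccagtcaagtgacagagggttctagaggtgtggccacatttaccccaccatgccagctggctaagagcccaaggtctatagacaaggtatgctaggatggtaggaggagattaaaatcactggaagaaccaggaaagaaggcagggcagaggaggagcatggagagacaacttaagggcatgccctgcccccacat
Cyp2e1, chr7:140763569-140763818: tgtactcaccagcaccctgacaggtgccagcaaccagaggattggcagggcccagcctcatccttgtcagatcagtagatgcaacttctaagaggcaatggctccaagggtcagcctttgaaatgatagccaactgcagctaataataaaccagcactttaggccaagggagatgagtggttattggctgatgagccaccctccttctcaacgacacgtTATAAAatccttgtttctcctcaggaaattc
Cyp2b10, chr7:25897408-25897657: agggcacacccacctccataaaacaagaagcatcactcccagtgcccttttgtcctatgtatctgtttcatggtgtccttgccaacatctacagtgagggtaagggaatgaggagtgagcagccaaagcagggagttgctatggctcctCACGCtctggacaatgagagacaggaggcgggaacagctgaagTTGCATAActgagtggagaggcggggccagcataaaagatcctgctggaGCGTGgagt
The Cyp2e1 window held a TATA box starting 31 bases before the start of the gene. The Cyp2b10 window held the receptor core at 101 and 9 bases and the C/EBP motif at 58 bases before the start. The Cyp2f2 window held none of the 3 motifs. RefSeq entries matched 61 of the 85 members, with 68 promoters between them. TATAAA occurred in 21 of these (30.9%) and in 12.4% of all promoters of this length. TTGCNNAA occurred in 18 (26.5%) and in 9.56% of all promoters, and GCGTG in 13 (19.1%) and in 28.2% of all promoters. Neighbouring members share related sequence, so their promoters are not independent, and a match is a description of letters and not a binding site. Ces1f, Ces1d and Cyp2c23 are shown without a promoter.

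Most members gave little signal in fat. Of the 85 members, 21 (24.7%) were above the floor on all 6 arrays, against 59.8% of all genes, and 27 (31.8%) on none, against 17.1% of all genes. Both arrays of a depot were above the floor for 31 members (36.5%) in epididymal, 28 (32.9%) in subcutaneous fat and 34 (40%) in brown fat. The shares of all genes were 66.7%, 68.5% and 66.1% in the same order. The 10 members that met this in brown fat alone were Cyp2b13, Cyp2c29, Cyp2c39, Cyp2c54, Cyp2d40, Cyp4a14, Cyp4a31, Cyp7a1, Cyp11b2 and the pseudogene Cyp4f41-ps. Their brown signals lay just above the floor, between 63.4 and 115. How many of all genes met this in brown fat alone was not counted.

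Among the aryl hydrocarbon-inducible P450s, 2 of 3 were above the floor on all arrays. Cyp1b1, which metabolises oestradiol and polycyclic hydrocarbons, had signals of 1583 in KO and 2281 in WT epididymal fat, 1558 and 1913 in subcutaneous fat, and 393 and 352 in brown fat. Its 4 white fat signals all lay above both brown ones. Cyp1a1, the classic target of the aryl hydrocarbon receptor, had 67.8 in KO and 110.3 in WT epididymal fat, 133 and 137 in subcutaneous fat, and 252 and 470 in brown fat, where both arrays exceeded all white ones.

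The P450s of vitamins and steroids were mostly dim. Cyp26b1, which clears retinoic acid, had 242 in KO and 241 in WT subcutaneous fat, 92.9 and 70.8 in epididymal fat, and 77.2 in KO brown fat with the WT brown array under the floor. Of the 3 vitamin D P450s, 2 were under the floor throughout, and the vitamin D hydroxylase gene Cyp2r1 reached 121 in KO and 92.2 in WT epididymal fat. None of the 5 steroid hormone P450s was above the floor on all arrays. Cyp21a1, the steroid hydroxylase gene of the adrenal cortex, had 138 in KO and 122 in WT brown fat, 103 and 126 in epididymal fat, and was under the floor on both subcutaneous arrays. In the cholesterol and bile acid group, 1 of 6 was above the floor on all arrays, the mitochondrial sterol hydroxylase gene Cyp27a1. It had 1887 in KO and 2017 in WT epididymal fat, 1312 and 1681 in subcutaneous fat, and 2673 and 2228 in brown fat, a narrow range across all arrays.

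Of the 16 epoxygenase-type P450s of the Cyp2c and Cyp2j groups, which act on arachidonic acid and related fatty acids, 3 were above the floor on all arrays. Cyp2j6 had 297 in KO and 340.2 in WT epididymal fat, 261 and 289 in subcutaneous fat, and 542 and 734 in brown fat, highest in the brown arrays. Its relative Cyp2j9 ran the other way, with 230 in KO and 352 in WT epididymal fat, 267 and 327 in subcutaneous fat, and 44.3 and 80.4 in brown fat. The CYP3 genes, major drug-metabolising P450s of liver and gut, were under the floor on every array in 4 of 5 cases. Among 13 fatty acid hydroxylase genes of the Cyp4 group, 4 were above the floor throughout. Cyp4b1 had 3584 in KO and 3321 in WT epididymal fat, 2853 and 3461 in subcutaneous fat, and 5524 and 3523 in brown fat, all far above the floor. Cyp4v3, related to the human gene mutated in Bietti crystalline dystrophy, ranged from 1953 to 3551. Cyp4f18, a leukotriene hydroxylase gene of mouse neutrophils, had 264 in KO and 474 in WT subcutaneous fat, 329 and 291 in epididymal fat, and was under the floor on both brown arrays.

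Of the other 18 CYP2 genes, 6 were above the floor on all arrays, Cyp2b10, Cyp2d22, Cyp2e1, Cyp2f2, Cyp2s1 and Cyp2u1. Cyp2e1, which oxidises ethanol and acetone, had signals between 19459 and 27737 on the 4 white arrays, all above its 2833 in KO and 9065 in WT brown fat. Among the carboxylesterases, Ces1d, a triglyceride hydrolase gene, had 13606 in KO and 15266 in WT epididymal fat, 17815 and 15586 in subcutaneous fat, and 20874 and 26278 in brown fat, with both brown arrays above all white ones. Probe sets differ in brightness, so signals are compared within a gene and not between genes. Of family 1, 3 of 6 genes, and of family 2, 3 of 5 genes were under the floor on every array. Ces2g, the family 2 member above the floor throughout, had 406 in KO and 544 in WT subcutaneous fat, 257 and 294 in epididymal fat, and 76.3 and 83.2 in brown fat. Cyp20a1, a P450 without a known substrate, had 2446 in KO and 2442 in WT epididymal fat, 2653 and 2642 in subcutaneous fat, and 1019 and 1254 in brown fat.

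Members lie in runs of neighbouring genes, and expression was uneven within a run. Of the 7 arrayed genes in the Ces1a to Ces5a run on chromosome 8, 3 were above the floor on all arrays (Ces1d, Ces1f and Ces5a) and 3 on none. Ces5a was above it on all arrays only through a probe set that can cross-hybridise. The Cyp2c55 to Cyp2c70 run on chromosome 19 had 10 genes on the array, with 2 above the floor on all arrays and 4 on none. The Cyp2d22 to Cyp2d26 run on chromosome 15 had 7, with only Cyp2d22, the mouse counterpart of a human drug-metabolising P450, above it throughout and 4 on none.

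**Figure D1:**
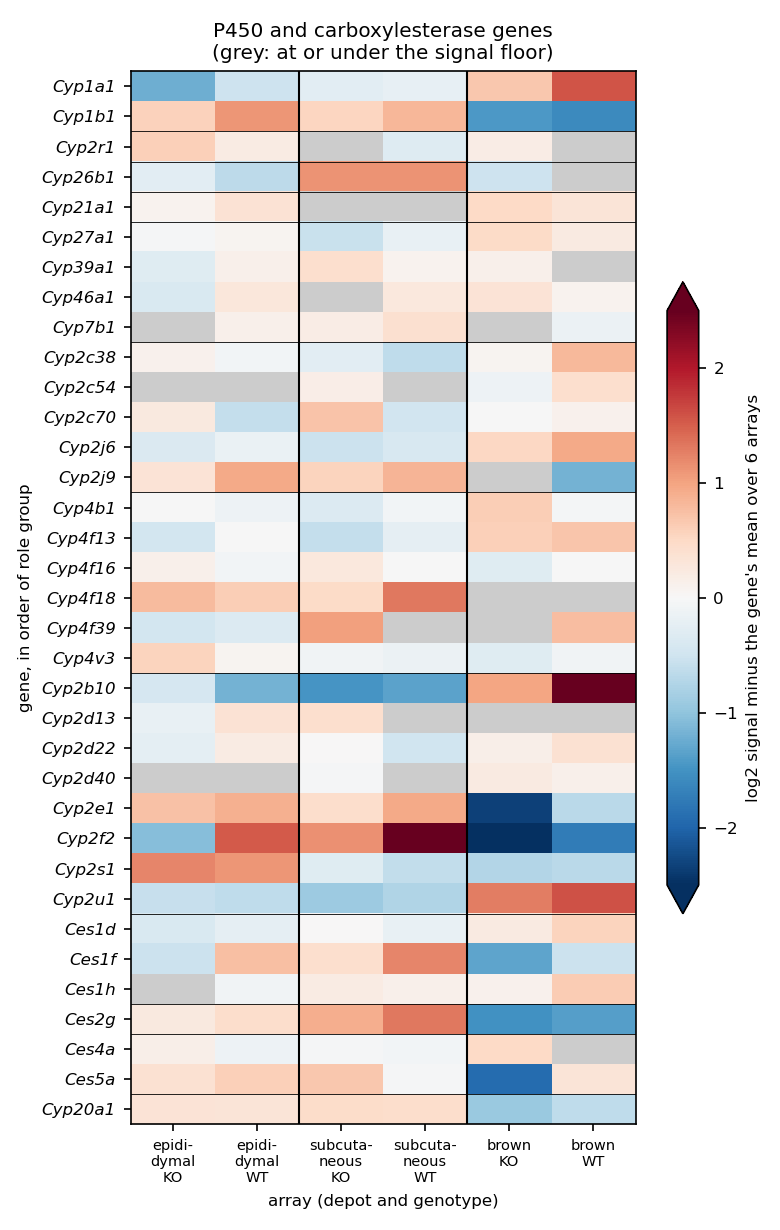
Log2 signal of the 35 genes that exceeded the floor on 3 or more arrays, as the difference from each gene's own mean over 6 arrays (colour), with KO left of WT in each depot and genes grouped by role. Grey cells are at or under the floor; Cyp2b10, Cyp1a1 and Cyp2u1 are red in brown fat, while Cyp2f2, Cyp2e1, Cyp1b1, Ces1f and Ces2g are blue there.

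KO and WT differed most in Cyp2f2, known in mouse airway club cells for activating naphthalene. Its signal was 335 in KO against 2034 in WT epididymal fat, 1555 against 4939 in subcutaneous fat, and 109 against 209.8 in brown fat. The KO array was the lower in every depot, by 6.07-fold, 3.18-fold and 1.93-fold, and the log2 difference averaged -1.74 ± 0.83 (SD, n = 3 depots). Of 4 club cell markers, Sftpb was above the floor on 6 arrays, Sftpa1 on 2, Scgb3a2 on 1 and the defining secretoglobin gene Scgb1a1 on 0, and their summed signal was 223 in KO against 234 in WT epididymal fat, 256 against 241 in subcutaneous fat and 223 against 329 in brown fat. Cyp2f2 has 1 probe set, so no other probe set checks it.

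Ces1f, a carboxylesterase with triglyceride hydrolase activity in mouse liver, had 2387 in KO against 5783 in WT epididymal fat, 4611 against 8074 in subcutaneous fat, and 1388 against 2371 in brown fat. It was also the lower in KO in every depot, by 2.42-fold, 1.75-fold and 1.71-fold, with a mean log2 difference of -0.95 ± 0.28 (SD, n = 3 depots). Its only probe set is of a type that can also detect related transcripts. The neighbouring and related Ces1d differed by at most 1.26-fold in any depot on its brightest probe set. The Ces1d probe sets disagreed. A probe set that can cross-hybridise had 1143 in KO against 4014 in WT epididymal fat and 7178 against 2505 in subcutaneous fat, while the third, gene-specific one differed by 1.32-fold and 1.09-fold there. Of 8 hepatocyte markers, 5 (Apoa1, Ahsg, Ttr, Fgb and Tat) never exceeded the floor. The summed signal of all 8 was 584 in KO against 390.3 in WT epididymal fat, 1188 against 1085 in subcutaneous fat and 548 against 632 in brown fat. Only Alb was past 2-fold in a depot, with 342.6 in KO against 170.6 in WT epididymal fat.

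Across the 3 depots, limma with depot as a term called 0 of the 35 members tested higher and 0 lower in KO, as it did for 0% of all 13233 genes, with a smallest adjusted p of 0.46 among members. At an unadjusted p under 0.05 it gave 0 members higher and 5 lower, where 3.79% of all genes were higher and 4.54% lower. The 5 were Ces1f, Cyp2f2, Cyp2j9, Cyp1a1 and Cyp2e1. Ces1f had an SE of 0.15 and an unadjusted p of 0.0014 in limma, and Cyp2f2 an SE of 0.32 and an unadjusted p of 0.0027, with an adjusted p of 0.46 for both. With an intensity trend in limma's spread, the adjusted p was 0.029 for Ces1f and 0.051 for Cyp2f2, and 0.144% of all genes were then called higher and 0.106% lower. With depots in place of replicates, these p-values carry the scatter between depots, and the scatter between mice was not measured.

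**Figure D2:**
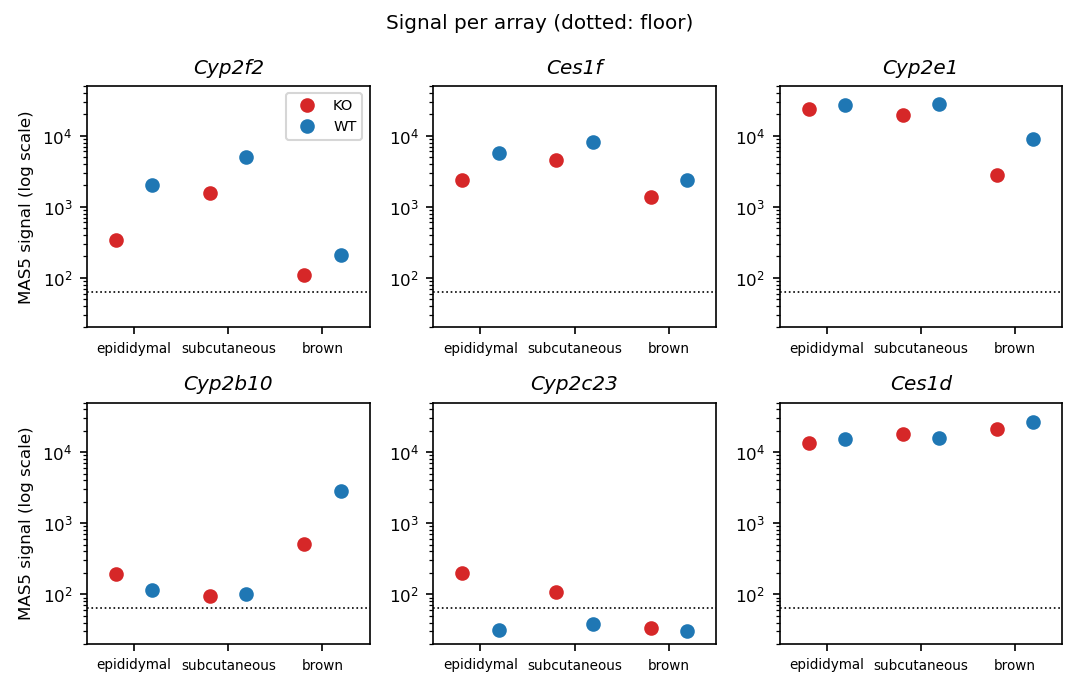
MAS5 signal (log axis) of 6 genes on each array, KO (red) left of WT (blue) within epididymal, subcutaneous and brown fat, with the floor dotted. Cyp2f2 and Ces1f are lower in KO in all 3 depots, Cyp2e1 and Cyp2b10 are furthest apart in brown fat, and Cyp2c23 is above the floor only on the 2 KO white fat arrays.

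In epididymal fat, 1 of 36 measured members was at least 2-fold higher in KO, where 0.87% of all measured genes were, and 2 were at least 2-fold lower, where 1.41% of all genes were. The higher one was Cyp2c23, an arachidonic acid epoxygenase gene known from kidney. Its signal was 199 in KO against 30.9 in WT epididymal fat, 108 against 38.1 in subcutaneous fat, and 33.6 against 30.1 in brown fat. Only the KO white fat arrays were above the floor, so it was at least 3.14-fold higher in KO in epididymal and at least 1.71-fold higher in subcutaneous fat. Its only probe set can also detect related transcripts. The 2 lower members were Cyp2f2 and Ces1f. Skeletal muscle markers also differed between these arrays, with 7 of 8 at least 2-fold lower in KO and a summed signal of 1973 in KO against 4871 in WT. Of 6 brown adipocyte markers, 0 were past 2-fold, with a summed signal of 15113 in KO against 21865 in WT. Their part in the member differences was not tested.

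In subcutaneous fat, 2 of 39 measured members were at least 2-fold higher in KO, where 2.2% of all genes were, and 1, Cyp2f2, was at least 2-fold lower, where 0.722% of all genes were. Cyp4f39, which hydroxylates very long fatty acids for skin ceramides, had 182 in KO against 39.4 in WT subcutaneous fat, so it was at least 2.88-fold higher in KO. It had 64.5 against 70.1 in epididymal fat and 50.0 against 151 in brown fat, where it was at least 2.39-fold lower in KO. Cyp2c70, which forms muricholic acids in mouse liver, had 164 in KO against 71.7 in WT subcutaneous fat, 118 against 66.1 in epididymal fat and 98.9 against 108 in brown fat. It was 2.29-fold higher in KO in subcutaneous and 1.79-fold higher in epididymal fat, with signals near the floor in WT. Seminal vesicle secretion genes differed between the subcutaneous arrays, with 4 of 5 at least 2-fold lower in KO and a summed signal of 1843 in KO against 8618 in WT, and 2 of 8 muscle markers were at least 2-fold higher in KO. Of 6 macrophage markers, 0 were past 2-fold, with a summed signal of 18722 in KO against 26130.2 in WT, and of 6 brown adipocyte markers 1 was, Ucp1, with 1428 in KO against 2934 in WT. Their part in the member differences was not tested.

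In brown fat, of 50 measured members, 5 were at least 2-fold lower in KO, where 2.43% of all genes were, and 0 were at least 2-fold higher, where 1.1% of all genes were. With the mean of all probe sets, 3 were lower and 0 higher, and quantile normalization gave 5 lower and 2 higher. The shares of all genes were not counted under these alternatives. Cyp2b10, the classic target of the nuclear receptor CAR in liver, had 518 in KO against 2811 in WT brown fat, 193.5 against 114.5 in epididymal fat and 94.2 against 102 in subcutaneous fat. It was thus 5.43-fold lower in KO brown fat on a probe set that can cross-hybridise. Another such probe set had 313 in KO against 1950.2 in WT brown fat. The gene-specific one had 247 against 991 there (4.02-fold lower in KO), and 89.1 in KO against 74.3 in WT epididymal fat. Cyp2e1 had 2833 in KO against 9065 in WT brown fat (3.20-fold lower in KO), 23748 against 26758 in epididymal fat and 19459 against 27737 in subcutaneous fat. Its KO array was the lower in all 3 depots, with the widest gap in brown fat.

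Ces5a, a secreted carboxylesterase known from the epididymis, had 165 in KO against 778 in WT brown fat (4.70-fold lower in KO), 813 against 947 in epididymal fat and 993 against 613 in subcutaneous fat. That probe set can cross-hybridise, and a gene-specific one had 106 in KO against 83.8 in WT brown fat, so the direction depended on the probe set. The gene-specific one was under the floor on every white fat array, with signals between 31.3 and 60.5. Of 5 epididymal epithelium markers on the array, 4 (Lcn5, Lcn9, Adam7 and Cst11) were at or under the floor throughout. The other, Lcn8, was above the floor only in brown fat, with 94.7 in KO against 141.8 in WT. Cyp11a1, which makes pregnenolone from cholesterol, had 47.9 in KO against 134 in WT brown fat and was under the floor on the other arrays, so it was at least 2.11-fold lower in KO. Its other 2 probe sets were under the floor on all arrays. Skeletal muscle markers differed most here, with 8 of 8 at least 2-fold lower in KO and a summed signal of 521 in KO against 16239 in WT brown fat. The brown adipocyte markers had 0 of 6 past 2-fold in either direction and a summed signal of 181479 in KO against 201926 in WT. The part of muscle RNA in the member differences was not tested.

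**Figure D3:**
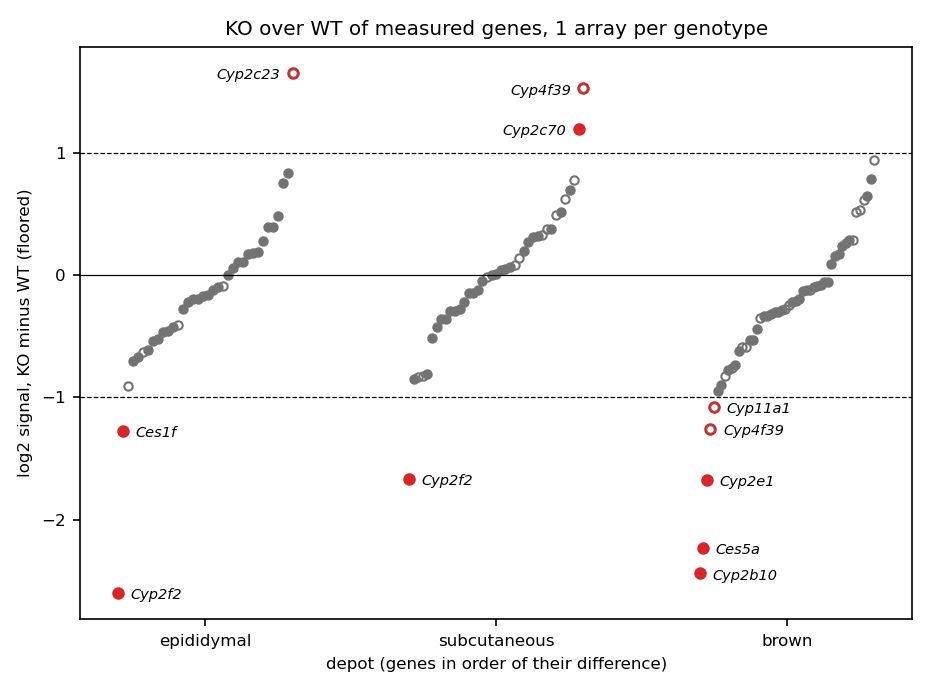
Log2 KO over WT signal of every member measured in a depot, in order of size within each depot, with open circles where 1 array was at or under the floor. Dashed lines mark 2-fold and red points lie past it, 3 each in the white depots and 5 in brown fat, the 5 brown ones all below 0.

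As a whole, the measured members had a median log2 KO over WT of -0.17 in epididymal fat, where the median of all measured genes was -0.02. The medians were 0.01 against 0.04 for all genes in subcutaneous fat and -0.26 against -0.03 in brown fat. Members below 0 numbered 22 of 36 in epididymal fat, 18 of 39 in subcutaneous fat and 37 of 50 in brown fat. Among all measured genes, 7047 of 13225, 6279 of 13857 and 7388 of 13779 were below 0 in the 3 depots in the same order. Under quantile normalization, the median of members was -0.11, -0.10 and -0.21 in the 3 depots in the same order. Centring each array on its median moved the median of all genes to 0.11, -0.12 and 0.11. That of members moved to -0.04, -0.13 and -0.15. The median of members thus lay below that of all genes in each depot under each of the 3 scalings, while the sign of the subcutaneous one turned. With the mean of all probe sets, the median of members lay above in subcutaneous fat, at 0.07 against 0.05 for all genes. Of 30 members measured in all 3 depots, 9 (30.0%) were below 0 in each, where 17.2% of all genes were, and 2 (6.67%) were above 0 in each, where 16.2% of all genes were. The 9 were Ces1f, Ces2g, Cyp1a1, Cyp2e1, Cyp2f2, Cyp2j6, Cyp2j9, Cyp4f13 and Cyp7b1, and the 2 were Ces4a and Cyp26b1. The brown values of Cyp2j9, Cyp7b1, Ces4a and Cyp26b1 and the epididymal value of Cyp7b1 are bounds. Another probe set of Cyp7b1 had 77.2 in KO against 49.5 in WT epididymal fat. Another of Cyp2j6 had 353 in KO against 335 in WT brown fat. The subcutaneous value of Cyp26b1 rested on 242 in KO against 241 in WT.

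Brown and white fat differed in more members than KO and WT. In limma over all 6 arrays, 8 of 35 members were higher in brown than in white fat, where 21.6% of all genes were, and 10 were lower, where 31.1% of all genes were, at an adjusted p under 0.05. Both shares were near the background. Each depot had only its KO and its WT array, so genotypes stand in for replicates here and the scatter between mice was not measured. Cyp2b10 had the largest rise, 9.98-fold (log2 3.32, SE 0.65, limma adjusted p = 0.010), with a log2 gap of 1.94 between the KO arrays and 4.70 between the WT arrays. Cyp2u1, a fatty acid hydroxylase gene, had 303 in KO and 377 in WT brown fat against 66.8 to 84.1 on the 4 white arrays, and rose 4.43-fold (limma adjusted p = 5.1e-04). Cyp1a1 rose 3.18-fold, Cyp2j6 2.14-fold and Cyp4f13 1.95-fold (limma adjusted p = 0.0025, 0.0022 and 0.0038). Cyp21a1, Ces1d and Cyp27a1 rose by 1.53-fold, 1.51-fold and 1.43-fold (limma adjusted p = 0.020, 0.027 and 0.0499). The fold of Cyp21a1 depends on the floor, since both subcutaneous arrays were under it. These 3 calls were lost under 6 of 14, 8 of 15 and 8 of 15 alternatives, and leaving out the KO epididymal array lost all 3.

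Cyp2f2 had the largest fall, 10.0-fold lower in brown than in white fat (log2 -3.32, SE 0.34, limma adjusted p = 0.0014), with a log2 gap of -2.73 between the KO arrays and -3.92 between the WT arrays. Cyp4f18 fell 5.24-fold, Cyp1b1 4.87-fold, Cyp2e1 4.77-fold, Ces2g 4.51-fold and Cyp2j9 4.06-fold (limma adjusted p between 4.8e-04 and 0.0040). Ces1f fell 2.62-fold, Cyp20a1 2.25-fold, Cyp2s1 2.09-fold and Cyp26b1 2.00-fold (limma adjusted p between 0.0019 and 0.0036). The folds of Cyp4f18, Cyp2j9 and Cyp26b1 depend on the floor, to which both brown arrays were raised for Cyp4f18, the KO brown array for Cyp2j9 and the WT brown array for Cyp26b1. The fall of Cyp2e1 and the rise of Cyp2b10 missed the threshold in limma without the filter on dim genes (adjusted p = 0.070 and 0.12). The other falls held under all alternatives. Macrophage markers summed to 4309 in KO and 5313 in WT brown fat against 18722 to 26130 on the white arrays. Fibroblast and adipocyte precursor markers summed to 20332 and 29221 against 65261 to 85685. Brown adipocyte markers ran the other way, with 181479 and 201926 against 14077 to 21865. The part of cell types in the member differences was not tested.

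**Figure D4:**
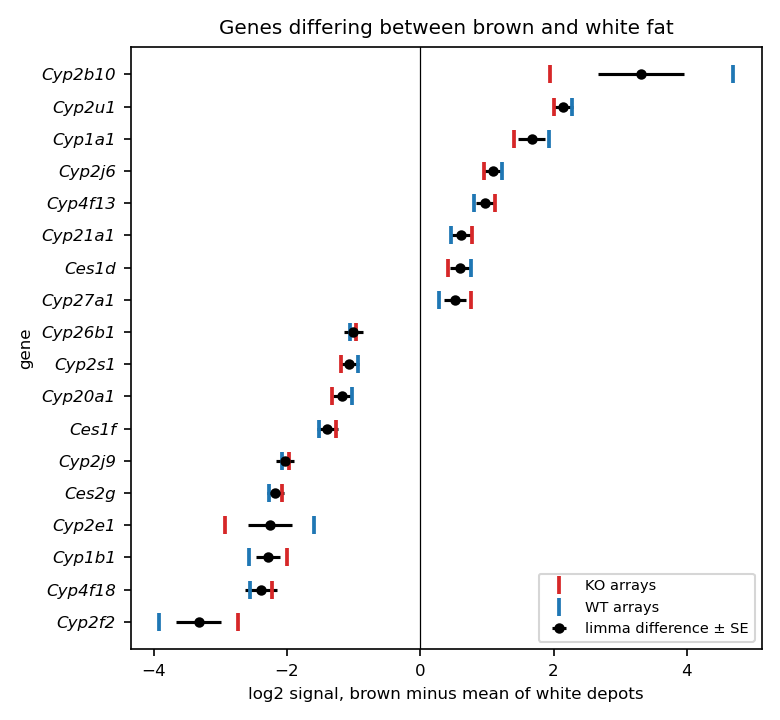
Log2 signal in brown fat minus the mean of the white depots for the 18 members past the limma threshold, with the limma estimate and its SE in black and the gaps within the KO (red) and WT (blue) arrays as ticks. Gaps within KO and WT have the same sign for every gene shown and lie furthest apart for Cyp2b10, at 1.94 in KO and 4.70 in WT.

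Between the white depots, limma called 1 of 35 members higher in subcutaneous than in epididymal fat, where 3.88% of all genes were, and 1 lower, where 1.16% were. Cyp26b1 was 2.98-fold higher (log2 1.58, SE 0.16, limma adjusted p = 0.012), and its 2 subcutaneous signals exceeded both epididymal ones. Cyp2s1, inducible through the aryl hydrocarbon receptor, had 103 in KO and 83.0 in WT subcutaneous fat against 295 in KO and 274 in WT epididymal fat. It was 3.08-fold lower in subcutaneous fat (log2 -1.62, SE 0.16, limma adjusted p = 0.0096). Both calls held under 9 of 14 alternatives and were lost when either epididymal array was left out, with limma adjusted p between 0.078 and 0.12. Cyp2f2 was 3.36-fold higher in subcutaneous fat without passing the threshold (limma adjusted p = 0.082). Marker sums also differed between these depots. B and T lymphocyte markers summed to 15126 in KO and 15898 in WT subcutaneous fat against 898 and 1192 in epididymal fat. Skeletal muscle markers summed to 58245 and 51008 against 1973 and 4871, and mesothelium markers to 150 and 326 against 7515 and 8109. Their part in the member differences was not tested.

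Genes that work with or regulate these enzymes were taken from 6 lists, and limma across depots called 0 of them higher or lower in KO. At an unadjusted p under 0.05 limma gave 4 higher and 8 lower of the 86 tested, where 3.79% of all genes were higher and 4.54% lower. Of 7 genes listed as redox partners of P450 enzymes (Cyb5a, Cyb5b, Cyb5r1, Cyb5r3, Fdx1, Pgrmc1 and Pgrmc2), 0 were past 2-fold in any depot. The P450 reductase gene Por was not among the genes measured. Cyb5b, the cytochrome b5 of the outer mitochondrial membrane, had 7869 in KO against 5095 in WT epididymal fat, 5789.9 against 3585 in subcutaneous fat and 7887 against 4886 in brown fat, the higher in KO each time by 1.54-fold to 1.62-fold (limma adjusted p = 0.46). Of 12 haem genes, 1 was past 2-fold, the haem oxygenase gene Hmox1, with 252 in KO against 88.2 in WT brown fat. Of 17 receptor genes, 0 were past 2-fold. Ahr, the aryl hydrocarbon receptor gene, had 832 in KO against 899 in WT epididymal fat, 825 against 1033 in subcutaneous fat and 747 against 875 in brown fat, and Nr1i3, which encodes CAR, was under the floor on all arrays.

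Among other enzymes of the same pathways, 1 of 16 measured oxidising enzyme genes in epididymal fat was past 2-fold, the aldehyde oxidase gene Aox3 with 71.3 in KO against 197 in WT. In brown fat, 1 of 15 was, the alcohol dehydrogenase gene Adh7 with 51.6 in KO against 139 in WT. Of 24 conjugating enzyme genes measured in brown fat, 1 was past 2-fold, Nnmt, which methylates nicotinamide, with 1332 in KO against 6069 in WT (4.56-fold lower in KO). Of 14 measured lipid and ester hydrolase genes in brown fat, 1 was past 2-fold, the paraoxonase gene Pon1 with 1161 in KO against 4938 in WT (4.25-fold lower in KO). These brown differences stood beside the muscle marker difference given above, whose part in them was not tested.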

How the data were processed

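Per the submitters' processing notes, the authors made the values with MAS5 in Affymetrix Expression Console, with versions not stated there. The deposited values are linear intensity values, 1 per probe set and array, with a 2%-trimmed mean of 500.0 on each of the 6 arrays, which hides any shift in the RNA content of a cell. Each array is summarised alone, which makes dim probe sets noisy, and with intensities the number of arrays limits the precision.

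Probe sets with 1 gene symbol in the platform annotation (34958 of 45037, of which 34754 were found in the RefSeq table of GRCm38.p6, with 0 symbols changed) gave 18194 genes. No source used here names the build behind the array. Each gene took its brightest probe set by mean log2 signal over the arrays before any floor. Signals were then raised to the floor of 63.2 for differences and fits. Of the members, 21 had 2 or more probe sets, 7 took one that can cross-hybridise and 3 (Ces1f, Cyp2c23 and Cyp2c65) had only such sets. A member was measured in a depot with at least 1 of 2 arrays above the floor, and a difference was counted at 2-fold with the brighter array above it.

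limma 3.58.1 in R 4.3.3 was fitted to all 6 arrays with terms for genotype and depot. It tested 13233 genes, those exceeding the floor on 3 or more arrays, with Benjamini-Hochberg adjustment over all of them and a threshold of 0.05, and was tested on simulated data. Depots stand in for replicates in the test of KO against WT, and genotypes in the tests between depots. Python 3.11.15, pandas 2.3.3, numpy 2.4.6 and matplotlib 3.10.9 did the rest. Alternatives were quantile normalization, median centring, a floor at the 20th or the 60th percentile, the mean of a gene's probe sets, leaving out cross-hybridising probe sets, thresholds of 1.5-fold and 3-fold, limma with an intensity trend or with no floor or no filter, and leaving out depots or arrays. Named were members past 2-fold, the 12 with the highest signal in each depot, the 6 largest per direction between depots, up to 3 examples per role group, partner genes past 2-fold with up to 3 others per list, Cyp2f2, Cyp2c23, Ces1f and Kdm4b. The members, gene lists and this rule were chosen with earlier results of these data known.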

Additional observations from a re-analysis of the deposited data

Results flagged for a closer look

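Cyp4f39 is listed because KO and WT differed in opposite directions in 2 depots. Its log2 KO over WT was 1.53 in subcutaneous fat, with a signal of 182 in KO against 39.4 in WT, and -1.26 in brown fat, with 50.0 in KO against 151 in WT. The dimmer array was under the floor in both depots, so both values are bounds. With 1 array per group, the difference between the depots was not tested.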

How the results depend on the processing

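No paired analysis was possible because the labels give no replicate numbers by which to pair samples, and depot already stands as a term in the limma comparison of KO with WT. Of 451 values of KO over WT of named members under an alternative, 421 stayed within the spread between probe sets. Of the rest, 29 moved and 1 changed sign. Some of the 421 could not move, such as the mean of probe sets for a gene with only 1. Of 315 limma differences, 280 kept their direction and their side of the threshold, 33 fell short, 1 newly passed it and 1 changed sign. The sign changes were Ces5a in brown fat, with a log2 KO over WT of 0.33 without cross-hybridising probe sets, and Ces1d in brown against white fat, at -0.00866 under quantile normalization (limma adjusted p = 0.96). Counts of members depended on the floor. Among the alternatives, shares of all genes called were counted only for the intensity trend in KO against WT. The other member counts given here therefore have no background under their own setting. With the floor at the 20th percentile, 56, 53 and 57 members were above it in epididymal, subcutaneous and brown fat, and with the floor at the 60th percentile 18, 18 and 15. Members 2-fold higher in KO numbered 2, 12 and 10 in the 3 depots with the lower floor, and 0 in epididymal and 0 in subcutaneous fat with the higher one. Members 2-fold lower in KO numbered 5, 2 and 12 with the lower floor and 3 in brown fat with the higher one. At 1.5-fold, 3, 5 and 4 members were higher and 7, 5 and 14 lower in KO, and at 3-fold 1 was lower in epididymal, 0 higher in subcutaneous and 3 lower in brown fat. Quantile normalization gave 1 higher in KO in subcutaneous and 2 in brown fat, and median centring 1 in brown fat. Without cross-hybridising probe sets epididymal fat had 0 higher and 1 lower, and the mean of all probe sets gave 3 lower in brown fat. Across depots, limma with an intensity trend called 1 member lower in KO. Of members higher in brown fat, limma called 13 with the lower floor, 5 with the higher floor, 5 without the filter and 5 to 10 with an array left out, 5 being without the KO epididymal array. Members lower in brown fat numbered 10 to 11 with an array left out. Of members higher in subcutaneous than epididymal fat, limma called 0 with the lower floor, without a floor or without the filter, 2 with the higher floor, under median centring or with the mean of probe sets, 3 with an intensity trend and 0 to 1 with an array left out. Of members lower there, it called 0 with either other floor, without a floor or without the filter, 2 under quantile normalization, 3 under median centring and 0 to 1 with an array left out. Leaving out either epididymal array gave 0 in both directions. For the cases not explained by a floor, threshold or smaller number of arrays the cause was not tested.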

Other observations

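Partner genes also differed between brown and white fat. Ppara, the receptor that governs fatty acid oxidation genes, was 13.9-fold higher in brown than in white fat (limma adjusted p = 4.4e-04), with 4241 in KO and 4346 in WT brown fat against 241 to 349 on the 4 white arrays. Fdx1, the ferredoxin that feeds mitochondrial P450s, was 2.31-fold higher (limma adjusted p = 0.0014). Of 12 haem genes tested, limma called 4 higher and 1 lower in brown fat, and of 23 conjugating enzyme genes 4 higher and 11 lower, where 21.6% of all genes were higher and 31.1% lower. Between subcutaneous and epididymal fat, limma called 2 of 23 conjugating enzyme genes lower (Gsta3 and Gstm4) and 1 of 17 oxidising enzyme genes (Fmo2, a flavin monooxygenase gene, 3.78-fold, limma adjusted p = 0.026), and 0 in the other 4 lists, where 1.16% of all genes were lower.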
